A study of Mus musculus with 5 samples.

Results

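Macrophages of mouse flank tumours that carried at least 1 UMI (unique molecular identifier, a single captured transcript) of each of Lyve1, Folr2 and Cd163 were studied here. They numbered 1287 of 40005 macrophages and of 57661 kept cells in 5 single-cell RNA libraries. A kept cell had no fewer than 500 UMIs and 250 genes, and mitochondrial transcripts made up no more than 10% of its UMIs. A macrophage had at least 1 UMI of Csf1r, at least 2 of C1qa, C1qb and C1qc together, and none of Cd3d, Cd3e and Cd3g. Members also had less than 0.5% of their UMIs from Spp1. The values of these 11 genes therefore chose the cells, and within the members they are given only as a description.

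Lyve1 is a hyaluronan receptor, Folr2 a folate receptor and Cd163 the scavenger receptor for haemoglobin-haptoglobin complexes. In many healthy tissues they mark macrophages that sit along vessels and in connective tissue, take up dying cells and soluble proteins, and are often long-lived and partly independent of blood monocytes. Macrophages that arrive from monocytes more often carry the chemokine receptor Ccr2 and high MHC class II, the molecules that present peptides to helper T cells. Neither origin nor age of a cell can be read from its RNA alone.

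The tumours were made by injecting Lewis Lung Carcinoma (LLC) cells, a mouse lung cancer line, into mouse flanks. In the control group, called Scramble (3 libraries), the tumour cells carried a non-targeting control. In the JAG2KO group (2 libraries) they carried a guide RNA against JAG2, a membrane ligand of Notch receptors. The alteration thus sat in the injected tumour cells, not in the host's macrophages, and both groups share the tumour line, the flank site, Liberase digestion and the sort for live CD45-positive cells. CD45 marks leukocytes, so the sort was aimed away from the tumour cells, though some RNA of tumour-like genes was found (given below). Mouse strain, sex, age, time to collection, whether the edited line was 1 clone, and whether each library came from 1 animal are not given in the sources used here. P-values below therefore measure only the spread between these libraries, which may be technical.

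JAG2KO 2 stood apart from the other libraries. It had the most barcodes (21854 against 10262 to 12706) and the lowest depth per macrophage (median 4840 UMIs against 9672.5 to 10243.5). Total UMIs ran from 84788907 to 111680641 per library. Jag2 itself gave 2.25 to 4.52 CPM (UMIs of a gene per 1000000 UMIs summed) in kept cells. Since the sort was aimed away from the edited cells, this does not check the labels. The libraries shared 17 to 54 kept barcodes per pair over 10 pairs, and 1 of the shared barcodes was a member in both libraries of its pair.

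The members numbered 299, 219 and 234 in Scramble 1, 2 and 3 and 399 and 136 in JAG2KO 1 and 2. Their median depth was 15298, 15238 and 14763 UMIs in Scramble against 14390 and 9004.5 UMIs in JAG2KO, above the 4777 to 10082 of other macrophages in every library. Of the members, 10.4%, 16.0% and 12.8% in Scramble and 17.8% and 11% in JAG2KO were among the 8% of cells with the highest doublet score, against 8.86% to 9.70% of other macrophages. Doublets were kept, and leaving them out is given beside each result whose call it ended.

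The markers that the rule did not use gave a mixed picture of the name tissue-resident-like. Gas6, a bridge between dying cells and the receptor Mertk, had a UMI in 89.7% to 97.0% of members, in 23.4% to 45.8% of other macrophages and in 1.89% to 7.22% of T cells, which should lack it (median 2639.5 to 2973 UMIs). Cd209f, a C-type lectin of resident macrophages, had a UMI in only 1.34, 5.94 and 3.85% in Scramble against 11.5 and 12.5% in JAG2KO of members. In T cells that share was 0% to 2.02%, and in other macrophages 0.118% to 1.86%. Timd4, the phosphatidylserine receptor of many long-lived resident macrophages, was found in 1.34, 0.913 and 1.28% in Scramble against 3.51 and 2.94% in JAG2KO of members, at 1.05, 0.550 and 1.88 CPM in Scramble against 5.28 and 2.82 CPM in JAG2KO, and in at most 0.448% of T cells and 0.662% of neutrophils. After each member was thinned to 2000 UMIs a Timd4 UMI was left in members of JAG2KO 1 only (0.752%). Most members therefore had no UMI of Cd209f or Timd4, and the cells are called here by the 3 genes that chose them.

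The full 3-gene combination was found in 0 of 1253 T cells and 0 of 1634 neutrophils, which allows shares of up to 0.239% and 0.184% (3 counts). These cells were chosen without a Csf1r UMI and were shallow, with medians of 2639.5 to 2973 and 1217 to 1912 UMIs. Members had 9004.5 to 15298, so these limits do not bound background at the members' depth. In the members the combination was often shallow. A single Cd163 UMI decided membership in 111, 85 and 74 members in Scramble and 130 and 49 in JAG2KO. With at least 2 UMIs of each gene required, 51.5%, 50.7% and 50.4% of the members remained in Scramble and 59.1% and 50% in JAG2KO.

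Within the members the genes of the rule had these summed levels, given with no test. Lyve1 was at 558, 519.7 and 609.8 CPM in Scramble against 895 and 589.9 CPM in JAG2KO, Folr2 at 588, 609 and 627 CPM in Scramble against 674 and 602 CPM in JAG2KO and Cd163 at 309, 306 and 350.0 CPM in Scramble against 399 and 394 CPM in JAG2KO. Lyve1 and Folr2 overlapped between the groups, and Cd163 was above in both JAG2KO libraries. Spp1, held down by the rule, was at 1805, 1952 and 1833 CPM in Scramble against 501 and 431 CPM in JAG2KO.

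Against the other macrophages of the same library, the genes furthest above in the members included several lectins and genes of complement (the plot of genes furthest from other macrophages). Since the same cells were chosen by 3 of their genes, these ratios are described and not tested. Of 6312 genes at 20 CPM or more, 25 were at least 2-fold higher in the members of every library and 25 at least 2-fold lower, and with other macrophages matched on depth these counts were 21 and 12. Ednrb, the endothelin B receptor, was 2.85 to 4.34 log2 units higher over the 5 libraries. Ccl8, a chemokine of resident macrophages, was 2.63 to 3.19 higher and the lectin Cd209d 2.35 to 4.37 higher.

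**Figure D1:**
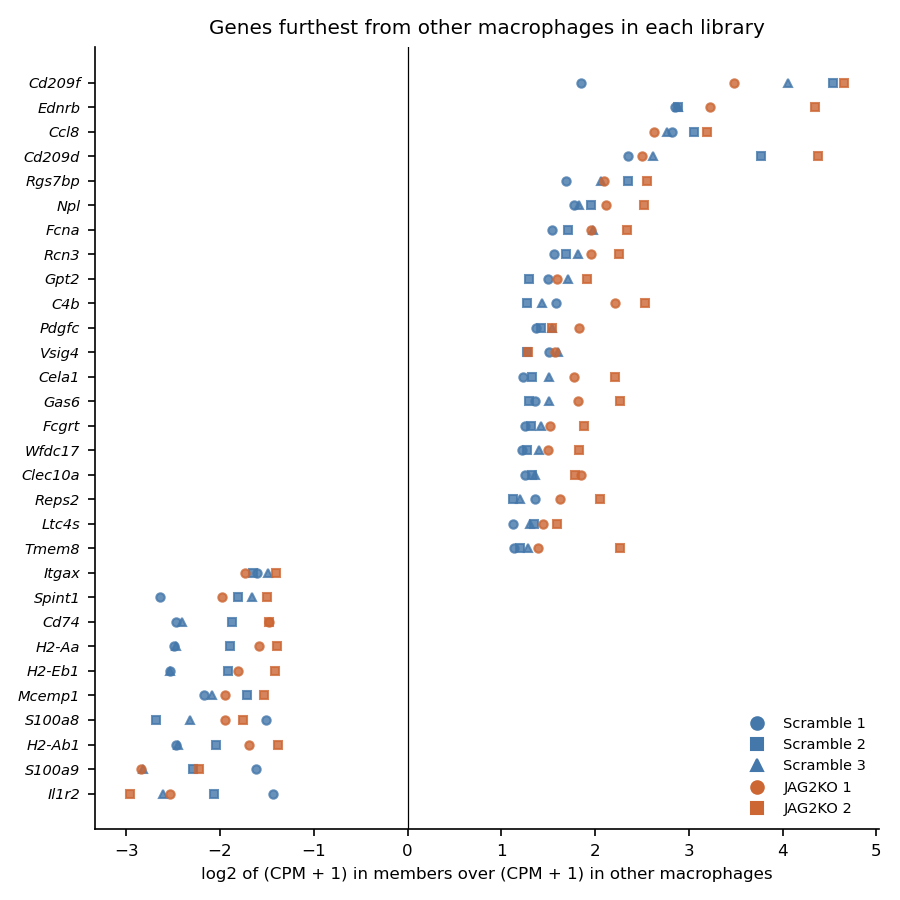
Log2 ratio of (CPM + 1) in the Lyve1, Folr2 and Cd163 macrophages to (CPM + 1) in the other macrophages of the same library (x axis), for the 20 genes furthest above and the 10 furthest below in every library (y axis), rule genes left out. Each point is 1 library, circles, squares and triangles being replicates 1, 2 and 3. Ednrb, Ccl8 and the Cd209 lectins lie far to the right and the MHC class II genes, S100a8, S100a9 and Il1r2 to the left in all 5 libraries.

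Some complement and opsonin genes were among them. C4b, complement component 4, stood 1.27 to 2.53 log2 units above other macrophages, and Fcna, the soluble lectin ficolin A, 1.54 to 2.34 above. Gas6 was 1.30 to 2.27 higher, Mrc1, the mannose receptor CD206, 1.01 to 1.51 higher, and Vsig4, a complement receptor of resident macrophages, 1.28 to 1.60 higher. Cbr2, F13a1 (the A chain of clotting factor XIII) and Igf1, genes common in resident macrophages, were 1.06 to 1.35, 1.07 to 2.51 and 1.0 to 1.38 higher. The 28 genes of a resident macrophage list, with the rule genes left out, summed to 14116, 13324 and 13796 CPM in Scramble against 15606 and 12991 CPM in JAG2KO in the members and to 7839.8, 6996 and 7339.8 CPM in Scramble against 7071 and 5190.2 CPM in JAG2KO in the others. A list of 18 complement genes summed to 3004, 2688 and 2739 CPM in Scramble against 3081 and 2435 CPM in JAG2KO in members and 2475, 2299 and 2238 CPM in Scramble against 2334 and 1862 CPM in JAG2KO in the others. The 25 genes of apoptotic cell uptake were close to level, at 4968, 4557 and 4779.8 CPM in Scramble against 4729 and 4192 CPM in JAG2KO in members and 4647, 4521 and 4778 CPM in Scramble against 4300.3 and 3797 CPM in JAG2KO in the others.

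On the lower side stood genes of antigen presentation, of monocytes and of neutrophils. H2-Ab1 and H2-Aa, chains of an MHC class II molecule, and Cd74, its invariant chain, ranged from -2.49 to -1.38 log2 units across the libraries. Ccr2 was -2.35 to -0.99, Ly6c2, a marker of inflammatory monocytes, -3.05 to -0.44, and the neutrophil alarmin S100a9 -2.84 to -1.61. Still, a Ccr2 UMI was present in 29.8% to 53.9% of members, against 63.1% to 69.3% of other macrophages. A cell type list for lymphatic endothelium, which also makes Lyve1, had its defining genes Prox1 and Flt4 at 0 in the members of every library. Still, 3 of the list's 5 matched genes had UMIs. Its sum was 203 to 264 CPM in Scramble and 211 to 243 CPM in JAG2KO in members. In other macrophages it was 173 to 237 and 179 to 207 CPM, and members were higher in all 5 libraries. The list's part in the result was not tested.

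The share of macrophages that were members did not separate the groups. It was 4.07% (95% exact binomial interval 3.63 to 4.55), 2.73% (2.38 to 3.11) and 3.80% (3.34 to 4.31) in Scramble 1, 2 and 3. In JAG2KO 1 it was 5.29% (4.79 to 5.82) and in JAG2KO 2 it was 1.25% (1.05 to 1.47), so the JAG2KO libraries held both the highest and the lowest share. The means were 3.53% ± 0.711 (SD, n = 3) and 3.27% ± 2.86 (SD, n = 2), a fold of 0.925 (two-sided exact permutation test, p = 0.9, where 10 splits exist and 0.1 is the smallest p). Without JAG2KO 2 the fold was 1.5, and without JAG2KO 1 it was 0.353. Intervals here and below cover counting error only.

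Depth per cell moved with this share. The median UMI count of macrophages rose with the number of the 3 genes found, from 5984 with none to 15648 with all 3 in Scramble 1, and from 2764 to 9004.5 in JAG2KO 2. With every macrophage thinned to 2000 UMIs the share was 0.675%, 0.510% and 0.721% in Scramble against 1.5% and 0.499% in JAG2KO, leaving out 241, 382, 195, 188 and 3110 shallower cells. The fold was then 1.57 (exact permutation test, p = 0.5), and 0.786 without JAG2KO 1. JAG2KO 1 lay above all Scramble libraries at every depth tried, while JAG2KO 2 lay below them (the plot of shares at 3 depths).

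**Figure D2:**
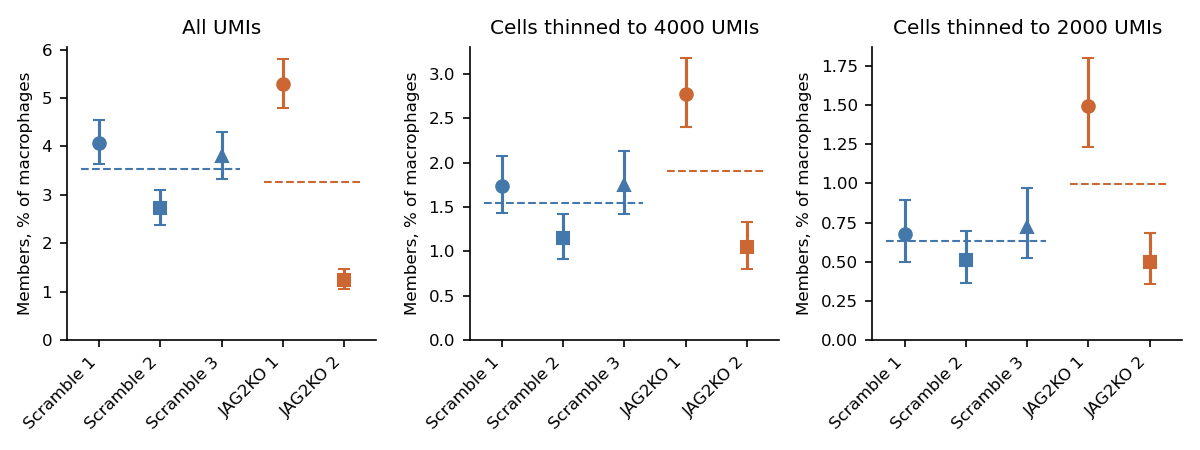
Share of macrophages that carried Lyve1, Folr2 and Cd163 (y axis, %) in each of the 5 libraries (x axis), with all UMIs, with cells thinned to 4000 UMIs and with cells thinned to 2000 UMIs. Bars are 95% exact binomial intervals and dashed lines group means. JAG2KO 1 is highest in each panel (5.29%, 2.77% and 1.5%) and JAG2KO 2 lowest (1.25%, 1.05% and 0.499%).

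The limit on Spp1 acted almost only on Scramble. Spp1 (osteopontin) was at 4401, 3049 and 2988 CPM in Scramble against 705 and 612 CPM in JAG2KO in other macrophages. The limit took away 113, 67 and 66 cells with all 3 genes in Scramble but 5 and 0 in JAG2KO. Just inside it (0.4% to under 0.5% of UMIs) were 24, 25 and 22 members in Scramble and 1 and 0 in JAG2KO, and just outside (0.5% to under 0.6%) were 24, 16 and 16 cells and 2 and 0. Without the limit the share was 5.61%, 3.56% and 4.87% in Scramble against 5.36% and 1.25% in JAG2KO.

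Over all macrophages, where no cell is selected by Lyve1, Folr2, Cd163 or Spp1, the 3 genes were measured as summed levels. Lyve1 was at 109, 74 and 109.7 CPM in Scramble against 152 and 47.6 CPM in JAG2KO, Folr2 at 332, 314 and 302 CPM in Scramble against 315 and 226 CPM in JAG2KO and Cd163 at 36.3, 26 and 34.7 CPM in Scramble against 36.1 and 15.6 CPM in JAG2KO. The groups overlapped for all 3 genes, and none passed the test. Their log2 fold changes (JAG2KO over Scramble, edgeR) were -0.00 (adjusted p = 0.998), -0.24 (adjusted p = 0.379) and -0.35 (adjusted p = 0.642). For scale, 2.90% of 14750 genes passed in all macrophages, 1.13% higher and 1.78% lower in JAG2KO.

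Within the members, JAG2KO was compared with Scramble on UMIs summed per library, using edgeR's quasi-likelihood test over 10647 genes. Of these, 300 rose (2.82%) and 123 fell (1.16%) at an adjusted p under 0.05, 3.97% in all, and the median log2 fold change of all genes tested was -0.01. The calls leaned on single libraries: 181 genes passed without JAG2KO 1, of which 116 were among the 423, and 500 passed without JAG2KO 2, of which 345 were. Without Scramble 1 or 2, 194 and 237 passed. Each fold change below is a log2 value (JAG2KO over Scramble) with its standard error.

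Some genes of alternative activation, the state that interleukin 4 induces in macrophages, rose in JAG2KO. Of 18 genes of this list that could be tested 6 rose and none fell (with DESeq2 also 6 and 0; at an unadjusted p under 0.05, 1 was lower), with a median log2 fold change of 1.06. Retnla (resistin-like alpha, RELMα), a secreted product of interleukin 4-treated mouse macrophages, was at 13, 159 and 98.9 CPM in Scramble 1, 2 and 3 and 1522 and 1123 CPM in JAG2KO 1 and 2. Among the named genes, with immunoglobulin and haemoglobin genes left out, it changed most (log2 fold change 3.91 ± 0.58, edgeR adjusted p = 0.00312). Both JAG2KO libraries lay far above all Scramble libraries, and Scramble 1 was far below the other two. For scale, both JAG2KO libraries lay above all Scramble libraries in 14.6% of tested genes and below them in 17.6%.

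The Retnla rise was carried by a minority of members. A UMI was found in 2.68, 6.39 and 7.69% in Scramble against 32.3 and 22.8% in JAG2KO of members, and in 1.01, 5.02 and 3.85% in Scramble against 20.1 and 17.6% in JAG2KO after thinning to 2000 UMIs. Background was also higher in JAG2KO: Retnla reached 10.5% of T cells and 14.8% of neutrophils in JAG2KO 1, at 30.9 and 96.6 CPM. Other macrophages had 12.6, 11.2 and 31.7 CPM in Scramble against 284 and 108 CPM in JAG2KO, so the members lay above them by 0.04 to 3.70 log2 units over the 5 libraries, least in Scramble 1.

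The promoter of Retnla is shown because the gene moved most among those named genes. In addition TTCNNNNGAA, the spacing that the interleukin 4-activated factor STAT6 prefers, occurs in it. The sequence is the 250 bases before the start, from RefSeq, build GRCm38.p6, with the match in capitals.

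Retnla, chr16:48842359-48842608 (+ strand): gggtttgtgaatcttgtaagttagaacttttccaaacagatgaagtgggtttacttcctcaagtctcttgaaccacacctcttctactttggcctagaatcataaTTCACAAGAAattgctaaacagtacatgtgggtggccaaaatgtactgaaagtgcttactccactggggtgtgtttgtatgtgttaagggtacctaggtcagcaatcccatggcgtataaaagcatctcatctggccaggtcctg

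The match begins 145 bases before the start. Searched on both strands from 250 bases before to 50 after the start, the motif was found in 1888 of 27025 promoters (6.99%). It was in 14 of the 231 promoters of risen genes that could be matched (6.06%) and in 5.19% of those of all tested genes. The motif is palindromic and has a fixed length of 10 bases. It was chosen after the values were seen and describes letters, not binding.

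Lectin and chemokine genes of the same list moved with Retnla. Clec10a and Mgl2, neighbouring C-type lectins that bind galactose-type sugars, were at 33.3, 33.8 and 41.4 CPM in Scramble against 149 and 84.7 CPM in JAG2KO and at 49.4, 30 and 51 CPM in Scramble against 112 and 155 CPM in JAG2KO. Their fold changes were 1.77 ± 0.19, edgeR adjusted p = 0.000425 and 1.60 ± 0.21, edgeR adjusted p = 0.00139. Ccl24 (eotaxin 2), an eosinophil attractant, was at 58, 40.4 and 33.8 CPM in Scramble against 136 and 149.6 CPM in JAG2KO (1.69 ± 0.18, edgeR adjusted p = 0.000407). In all 3 the groups did not overlap, and each call was kept when any 1 library was left out, while Mgl2 did not pass with cells thinned to 2000 UMIs (adjusted p = 0.147). Clec10a also belongs to a list for type 2 dendritic cells, whose 7 genes summed to 54.9, 51.7 and 72 CPM in Scramble against 181 and 142 CPM in JAG2KO, with 1 of 5 tested having risen. Its part in the result was not tested.

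Not every gene of this list changed. Mrc1, the most abundant of them, was at 2211, 2208 and 2381 CPM in Scramble against 2243 and 1823 CPM in JAG2KO, with overlapping groups (-0.13 ± 0.14, edgeR adjusted p = 0.735). Arg1 (arginase 1), which depletes arginine, was at 968, 1324 and 1494 CPM in Scramble against 614 and 1301 CPM in JAG2KO (-0.38 ± 0.27, edgeR adjusted p = 0.590), again with overlap. Its change hung on the JAG2KO library kept, at -1.05 without JAG2KO 2 and 0.10 without JAG2KO 1.

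The Cd209 lectins rose as a small family, but less firmly. Cd209f was at 6.49, 41.3 and 17.5 CPM in Scramble against 99.8 and 93.1 CPM in JAG2KO (2.22 ± 0.42, edgeR adjusted p = 0.0118), Cd209d at 9.21, 24.2 and 14 CPM in Scramble against 35.2 and 54.3 CPM in JAG2KO (1.46 ± 0.32, edgeR adjusted p = 0.0217) and Cd209g at 0.838, 9.08 and 4.84 CPM in Scramble against 25.4 and 18.3 CPM in JAG2KO (2.31 ± 0.47, edgeR adjusted p = 0.0169). Scramble 1 had the lowest value of all 3. Few members carried Cd209f or Cd209d, with a UMI in at most 12.5% and 6.62% of the members of a library. Cd209f did not pass without JAG2KO 1 (adjusted p = 0.0681), Cd209g did not either (0.223), and Cd209d did not pass without Scramble 1 (0.0795) or Scramble 3 (0.0520). With DESeq2 none of them passed (adjusted p = 0.272, 0.175 and 0.481), and Cd209f did not pass with cells thinned to 2000 UMIs (0.317). These genes are near copies in 1 cluster, so reads may be shared among them. The family's calls thus depended on the library and tool, unlike that of Clec10a.

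**Figure D3:**
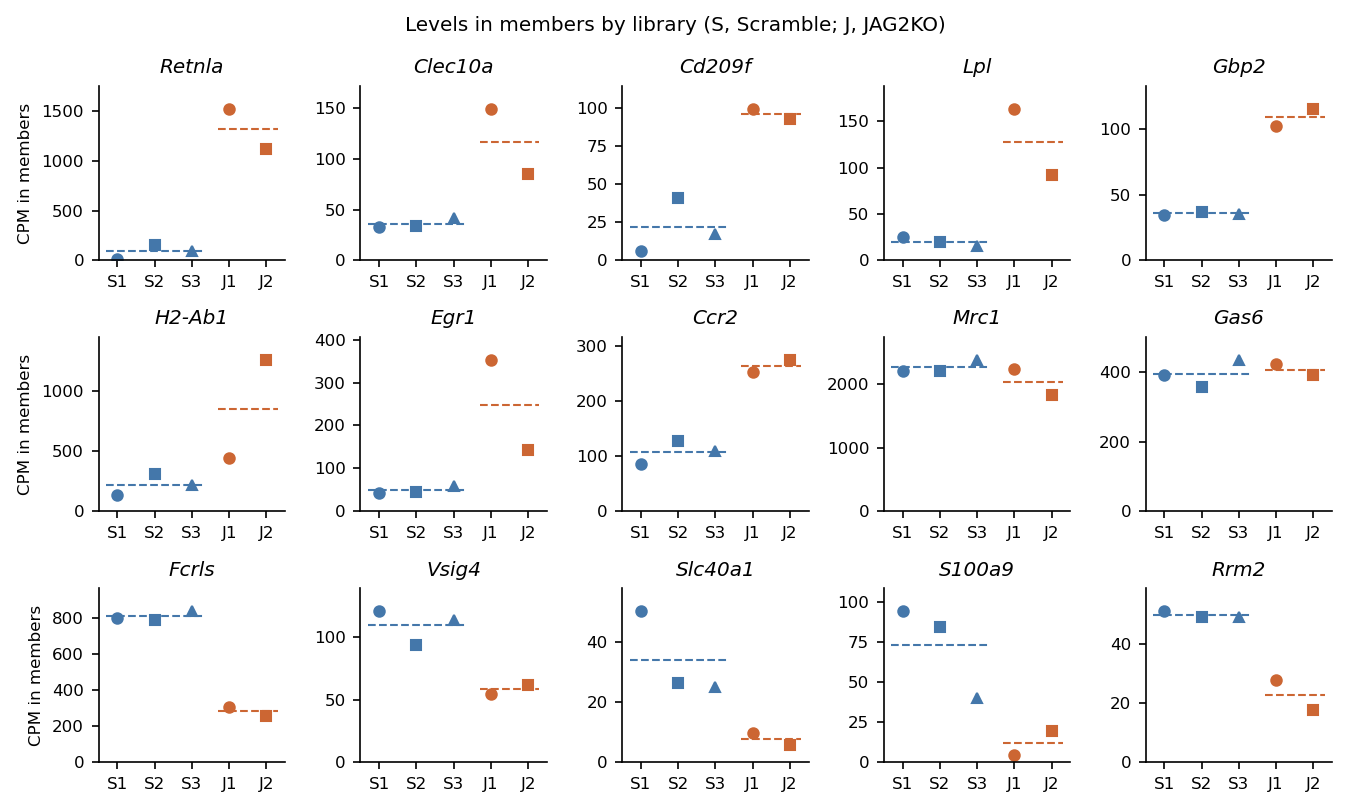
Summed level (y axis, CPM, linear from 0) of 15 genes in the Lyve1, Folr2 and Cd163 macrophages of each library (x axis; S1 to S3 Scramble, J1 and J2 JAG2KO), with group means as dashed lines. Retnla, Clec10a, Lpl, Gbp2, Egr1 and Ccr2 are higher in both JAG2KO libraries than in any Scramble library, Fcrls, Vsig4, Slc40a1, S100a9 and Rrm2 are lower, and Mrc1 and Gas6 overlap.

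Many genes that interferon gamma induces rose. Of 21 tested 11 rose and none fell, with a median of 1.20 (with DESeq2, 7 rose and none fell). Gbp2, a guanylate-binding protein that attacks vacuoles holding microbes, was at 35, 37.1 and 35.5 CPM in Scramble against 103 and 116 CPM in JAG2KO (1.62 ± 0.13, edgeR adjusted p = 7.53e-05). Iigp1, an immunity-related GTPase, was at 17.4, 25 and 18.3 CPM in Scramble against 90.1 and 67 CPM in JAG2KO (2.03 ± 0.17, edgeR adjusted p = 0.000119). In both genes the 3 Scramble libraries lay close together, and the JAG2KO libraries were at least 2-fold above them. Cd274 (PD-L1), the ligand of the T cell checkpoint PD-1, was at 8.38, 10.2 and 10.2 CPM in Scramble against 27.2 and 36.7 CPM in JAG2KO (1.69 ± 0.21, edgeR adjusted p = 0.00122). These 3 calls held when any library was left out.

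Other genes of the interferon groups moved less steadily. Cxcl9, a chemokine that draws T cells, was at 12.6, 58.9 and 20.1 CPM in Scramble against 139.9 and 155 CPM in JAG2KO (2.32 ± 0.40, edgeR adjusted p = 0.00738), and did not pass with DESeq2 (adjusted p = 0.138) or with cells thinned to 2000 UMIs (0.408). Of 27 tested genes of the type I interferon response 3 rose, with a median of 0.32, Ifi27l2a and Slfn5 among them. Slfn5 did not pass without Scramble 1, Scramble 2 or JAG2KO 1 (adjusted p = 0.0999, 0.0684 and 0.414), with sums thinned (0.0919) or with cells thinned (0.470). Ifi27l2a was at 823, 829 and 762 CPM in Scramble against 1436 and 1274 CPM in JAG2KO (0.78 ± 0.12, edgeR adjusted p = 0.00427) and did not pass with cells thinned (0.0919).

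The promoters of Gbp2 and Gbp5 are shown because GAAANNGAAA, the core of the element through which interferons act, was searched in the interferon genes that rose. It was found in 3 of the 7 whose promoters were matched. Both genes lie side by side on chromosome 3. In each, the match is read on the other strand and so appears as TTTC, 2 bases and TTTC, in capitals.

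Gbp2, chr3:142620413-142620662 (+ strand): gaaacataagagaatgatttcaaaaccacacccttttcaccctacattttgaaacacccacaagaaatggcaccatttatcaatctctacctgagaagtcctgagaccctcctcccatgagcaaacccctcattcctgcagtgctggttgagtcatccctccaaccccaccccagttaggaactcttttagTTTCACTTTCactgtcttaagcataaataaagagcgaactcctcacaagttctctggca
Gbp5, chr3:142496684-142496933 (+ strand): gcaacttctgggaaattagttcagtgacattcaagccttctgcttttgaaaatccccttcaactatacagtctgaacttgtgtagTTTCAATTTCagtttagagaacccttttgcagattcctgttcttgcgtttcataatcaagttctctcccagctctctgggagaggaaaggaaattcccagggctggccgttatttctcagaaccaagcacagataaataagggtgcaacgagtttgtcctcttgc

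The matches begin 59 and 165 bases before the start. In the same 300-base windows the motif was in 943 of 27025 promoters (3.49%), in 3.24% of those of tested genes and in 16 of the 231 of genes that rose (6.93%). Motif and genes were chosen after the values were seen, and the match in Retnla is of the other motif only.

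In MHC class II 6 of 12 tested genes rose and none fell, with a median of 0.93 (with DESeq2, 2 rose). H2-Ab1 was at 133, 308 and 219 CPM in Scramble against 440.5 and 1260.3 CPM in JAG2KO (1.97 ± 0.38, edgeR adjusted p = 0.0127), H2-Aa at 124, 335 and 215 CPM in Scramble against 481 and 1331 CPM in JAG2KO (2.03 ± 0.40, edgeR adjusted p = 0.0134) and Cd74 at 157, 417 and 279 CPM in Scramble against 612 and 1335 CPM in JAG2KO (1.80 ± 0.35, edgeR adjusted p = 0.0141). JAG2KO 2 was highest by far, and Scramble 1 lowest. Ciita, the master regulator of these genes, was at 3.14, 7.70 and 2.42 CPM in Scramble against 16.3 and 24.7 CPM in JAG2KO (2.16 ± 0.38, edgeR adjusted p = 0.00822). Even so the members' list sum, 677, 1545 and 1073 CPM in Scramble against 2120.3 and 5449.6 CPM in JAG2KO, stayed below that of other macrophages, 3224, 5519 and 5266 CPM in Scramble against 6233 and 14339 CPM in JAG2KO, in every library.

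These calls rested on few libraries. Without JAG2KO 2, H2-Ab1 (0.99, adjusted p = 0.0661), H2-Aa (1.09, adjusted p = 0.0748) and Cd74 (1.10, adjusted p = 0.0693) did not pass. Without Scramble 1, H2-Ab1 (adjusted p = 0.0648), H2-Aa (0.0600) and Ciita (0.0541) did not. With DESeq2 adjusted p was 0.114 for H2-Ab1, 0.131 for H2-Aa and 0.139 for Cd74.

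The spread within a library was wide. A member gave a median of 0.0246%, 0.0459% and 0.0335% of its UMIs to this list in Scramble and 0.0477% and 0.0962% in JAG2KO, and at most 2.57%, 3.46%, 2.55%, 3.82% and 3.02%. In the third of members with the most MHC class II, Ccr2 was higher than in the third with the least in 5 of 5 libraries (0.75 to 3.28 log2 units), as was Itgax (CD11c), while Gas6 and Stab1 were lower in 5 of 5. The groups are cut along a range, with 12 to 66 cells per library within 10% of a cut.

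MHC class I, which shows peptides to killer T cells, rose in 4 of 18 tested genes, with a median of 0.35: H2-K1, H2-Q7, H2-T23 and Tap1, which loads peptides. H2-K1 was at 784, 801 and 763 CPM in Scramble against 1367 and 1156 CPM in JAG2KO (0.71 ± 0.12, edgeR adjusted p = 0.00735), with both JAG2KO libraries above, and passed without any 1 library. H2-T23 was at 59.3, 67.9 and 54.3 CPM in Scramble against 98.1 and 93.8 CPM in JAG2KO (0.69 ± 0.13, edgeR adjusted p = 0.0113), but did not pass without JAG2KO 1 (adjusted p = 0.0796), Scramble 1 (0.0504), or in 3 other settings (0.0686 to 0.288). H2-Q7 did not pass without JAG2KO 1 (0.140), and Tap1 did not without Scramble 1, 2, 3 or JAG2KO 1 (0.119, 0.0598, 0.0551 and 0.322) or with DESeq2 (0.111).

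Monocyte genes moved in both directions. Of 22 tested 4 rose (Ccr2, Plac8, Nr4a1 and Ifitm6), 3 fell (S100a8, S100a9 and Cx3cr1) and 15 did not pass, with a median of 0.33. Plac8 did not pass without JAG2KO 1 (adjusted p = 0.119), and Ifitm6 without Scramble 1 (0.0531) or JAG2KO 1 (0.309). Ccr2 was at 86.3, 128 and 109 CPM in Scramble against 253 and 275 CPM in JAG2KO (1.32 ± 0.16, edgeR adjusted p = 0.000886), and Ly6a (Sca-1), an interferon-responsive surface protein, at 35.8, 53.9 and 27.9 CPM in Scramble against 191 and 88.9 CPM in JAG2KO (1.92 ± 0.27, edgeR adjusted p = 0.00231). Both rose, and both calls held without any 1 library. Ly6c2 was at 5.23, 9.35 and 10.7 CPM in Scramble against 9.31 and 12 CPM in JAG2KO, with overlap (0.30 ± 0.33, edgeR adjusted p = 0.759). Cx3cr1, the fractalkine receptor, was at 387, 390.4 and 432 CPM in Scramble against 243 and 291 CPM in JAG2KO (-0.58 ± 0.13, edgeR adjusted p = 0.0305), and did not pass without Scramble 1, 2, 3 or JAG2KO 1 (adjusted p = 0.0652, 0.0966, 0.0991 and 0.224) or with 2 UMIs of each chosen gene required (0.101).

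Several transcription factors of the early response to stimulation rose. Of 45 tested transcription factors of the macrophage list 15 rose and none fell (median 0.35), and of 28 genes that dissociation and stress induce 14 rose (median 0.68). The lists share 8 genes, of which 6 rose. Egr1 was at 42.3, 45.4 and 59.6 CPM in Scramble against 353 and 142 CPM in JAG2KO (2.40 ± 0.27, edgeR adjusted p = 0.000628), Egr2 at 7.96, 11.8 and 15.6 CPM in Scramble against 49.6 and 65.6 CPM in JAG2KO (2.28 ± 0.23, edgeR adjusted p = 0.000337) and Nr4a1, an orphan nuclear receptor, at 87.1, 144 and 131 CPM in Scramble against 325 and 264 CPM in JAG2KO (1.32 ± 0.18, edgeR adjusted p = 0.00220). Groups did not overlap, and JAG2KO 1 was highest for Egr1 and Nr4a1. Kdm6b, a histone H3 lysine 27 demethylase, was at 40.8, 48.4 and 62.3 CPM in Scramble against 204 and 145 CPM in JAG2KO (1.84 ± 0.17, edgeR adjusted p = 0.000168), and Nfe2l2 (NRF2), which drives antioxidant genes, at 127, 144 and 149 CPM in Scramble against 265 and 248 CPM in JAG2KO (0.90 ± 0.12, edgeR adjusted p = 0.00148). These 5 passed without any 1 library. Digestion of tissue is known to induce Egr1, Nr4a1 and Atf3, and the dissociation list summed to 10100.5, 12964 and 13047 CPM in Scramble against 18706 and 14582 CPM in JAG2KO. Its part in the result was not tested.

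Of 21 tested chemokines 4 rose (Cxcl2, Ccl24, Cxcl9 and Ccl6), 1 fell (Cxcl14) and 16 did not pass, with a median of 0.35. Of 27 growth factors and regulatory cytokines 5 rose, Il10 among them, and none fell. Ccl6 did not pass without Scramble 1, 2 or 3 (adjusted p = 0.153, 0.213 and 0.0754), and Cxcl14 without JAG2KO 1 (0.0557). The Ccl6 call was also lost with 2 UMIs of each chosen gene required and with cells thinned to 2000 UMIs. Cxcl2, a neutrophil attractant, was at 294, 400.0 and 327 CPM in Scramble against 998 and 634 CPM in JAG2KO (1.29 ± 0.18, edgeR adjusted p = 0.00222) and passed without any 1 library. Il10, the main deactivating cytokine, was at 2.72, 2.48 and 2.15 CPM in Scramble against 27.6 and 6.35 CPM in JAG2KO (3.04 ± 0.43, edgeR adjusted p = 0.00243), with JAG2KO 1 far above JAG2KO 2, and did not pass without JAG2KO 1 (1.41, adjusted p = 0.361).

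Lpl, Pltp and Flrt3 were also among the named genes that rose. Lpl (lipoprotein lipase) was at 24.9, 19.5 and 15.8 CPM in Scramble against 164 and 92.4 CPM in JAG2KO (2.73 ± 0.21, edgeR adjusted p = 7.53e-05) and Pltp, which transfers phospholipids between lipoproteins, at 507, 579 and 584 CPM in Scramble against 955 and 866 CPM in JAG2KO (0.73 ± 0.13, edgeR adjusted p = 0.00687). The Lpl call held in every setting in which it was tested, while Pltp did not pass with cells thinned (adjusted p = 0.734). Flrt3, a membrane adhesion protein, was at 5.03, 3.58 and 4.30 CPM in Scramble against 30.9 and 21.2 CPM in JAG2KO (2.66 ± 0.24, edgeR adjusted p = 0.000127) and held without any 1 library.

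Among the genes that fell, Fcrls stood out. It encodes a scavenger-like Fc receptor relative known from microglia, and was at 799.6, 786 and 839 CPM in Scramble against 306 and 258 CPM in JAG2KO (-1.49 ± 0.13, edgeR adjusted p = 0.000119). Its Scramble libraries agreed closely and its JAG2KO libraries were far lower, a fall also seen in all macrophages (-1.61 (adjusted p = 0.00933)). Chst1, a sulfotransferase for keratan, was at 33.3, 42.4 and 46.2 CPM in Scramble against 14.7 and 12.7 CPM in JAG2KO (-1.50 ± 0.19, edgeR adjusted p = 0.00148), again without overlap. Both passed without any 1 library.

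Slc40a1 and Vsig4 also fell. Slc40a1 (ferroportin), the iron exporter, was at 50.3, 26.4 and 25 CPM in Scramble against 9.77 and 5.65 CPM in JAG2KO (-1.96 ± 0.33, edgeR adjusted p = 0.00628), and did not pass without JAG2KO 1 (adjusted p = 0.0547) or with 2 UMIs of each chosen gene required (0.114). Vsig4 was at 121, 93.5 and 114 CPM in Scramble against 54.8 and 62.1 CPM in JAG2KO (-0.91 ± 0.15, edgeR adjusted p = 0.00427), and did not pass without JAG2KO 1 (0.0796) or with cells thinned (0.972). Hmox1, which breaks down haem, was at 1771, 1475 and 1039 CPM in Scramble against 502 and 1226 CPM in JAG2KO, with overlap (-0.70 ± 0.31, edgeR adjusted p = 0.298). Erythroid genes moved beside these iron genes: a list of 6 summed to 365, 149.9 and 41.9 CPM in Scramble against 3.72 and 6.35 CPM in JAG2KO in the members and 347, 135 and 54.5 CPM in Scramble against 4.05 and 7.40 CPM in JAG2KO in other macrophages and all 4 tested fell. Their part in the result was not tested.

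Genes of neutrophils fell as well. S100a9 was at 94.6, 84.5 and 40 CPM in Scramble against 4.81 and 19.8 CPM in JAG2KO (-3.12 ± 0.48, edgeR adjusted p = 0.00393) and S100a8 at 75, 47 and 45.4 CPM in Scramble against 9.77 and 24 CPM in JAG2KO (-2.04 ± 0.33, edgeR adjusted p = 0.00429), against 40.6 to 416 CPM in other macrophages. S100a9 did not pass without JAG2KO 1 (adjusted p = 0.0859) or with DESeq2 (0.0763), and S100a8 did not without JAG2KO 1 (0.122), with DESeq2 (0.0738) or with doublets removed (0.0654). The neutrophil list of 8 genes summed to 221, 177 and 113 CPM in Scramble against 53.2 and 74.1 CPM in JAG2KO, 3 of 5 tested fell, and Ly6g was at 0 throughout. Its part in the result was not tested.

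H19 and Hmga2, fetal genes common in tumour cells, were at 45.2, 50.3 and 23.6 CPM in Scramble against 4.65 and 12.7 CPM in JAG2KO (-2.61 ± 0.40, edgeR adjusted p = 0.00388) and 37.7, 36.6 and 18 CPM in Scramble against 8.84 and 7.76 CPM in JAG2KO (-1.84 ± 0.32, edgeR adjusted p = 0.00689). Neither passed without JAG2KO 1 (adjusted p = 0.137 and 0.105), and Hmga2 did not with doublets removed (0.0506) or with 2 UMIs of each chosen gene required (0.0827). A list of 6 tumour-like genes summed to 49.4, 59.4 and 21 CPM in Scramble against 17.8 and 4.23 CPM in JAG2KO in members, with none of 3 tested past edgeR's threshold and all 3 lower at an unadjusted p under 0.05. A fibroblast list of 9 summed to 116, 144 and 47.5 CPM in Scramble against 98.5 and 35.3 CPM in JAG2KO, with none of 6 past it and 3 lower at an unadjusted p under 0.05. DESeq2 called none in either list. Their part in the result was not tested.

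Cell cycle genes were lower on the whole, but few passed. Of 40 tested 3 fell (Rrm2, Tyms and Hist1h1b) and none rose, with a median of -0.31. At an unadjusted p under 0.05, 13 were lower and none higher, and with DESeq2 2 were lower. Rrm2, a subunit of ribonucleotide reductase, was at 51.1, 49 and 48.9 CPM in Scramble against 27.6 and 17.6 CPM in JAG2KO (-1.0 ± 0.16, edgeR adjusted p = 0.00460), with both JAG2KO libraries below and the call kept without any 1 library. Tyms did not pass when any of the 5 libraries was left out (adjusted p from 0.0533 to 0.223) or with DESeq2 (0.214), and Hist1h1b did not without Scramble 1 (0.0902) or Scramble 2 (0.0598), without the Spp1 limit (0.0905) or with DESeq2 (0.132). Mki67, which marks dividing cells, was at 193, 175 and 212 CPM in Scramble against 148 and 81.9 CPM in JAG2KO (-0.67 ± 0.18, edgeR adjusted p = 0.0636). A Mki67 UMI was found in 40.8, 37 and 32.9% in Scramble against 34.3 and 22.8% in JAG2KO of members, and in 15.8, 16 and 16.7% in Scramble against 14 and 8.82% in JAG2KO after thinning.

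In the resident program 5 of 28 genes rose and 1 fell (Vsig4), with a median of 0.09, where 3.97% of all tested genes passed. The 5 were Ccl24, Clec10a and the 3 Cd209 lectins already described. At an unadjusted p under 0.05, 11 were higher and 4 lower, and DESeq2 called 4 higher and 2 lower. Gas6 was at 394, 359 and 437 CPM in Scramble against 423 and 392 CPM in JAG2KO (0.07 ± 0.12, edgeR adjusted p = 0.881), Pf4 (platelet factor 4) at 2525, 2129.8 and 1614 CPM in Scramble against 2159.8 and 2307 CPM in JAG2KO (0.12 ± 0.17, edgeR adjusted p = 0.832) and F13a1 at 1559.9, 1591 and 1679 CPM in Scramble against 2062 and 1298 CPM in JAG2KO (0.08 ± 0.17, edgeR adjusted p = 0.892), all with overlapping groups. Selenop, which carries selenium, was at 878, 969 and 947 CPM in Scramble against 1421 and 1169.9 CPM in JAG2KO, without overlap (0.50 ± 0.13, edgeR adjusted p = 0.0544). The transcription factor Maf, which holds macrophages in a resting, differentiated state, was at 1386, 1224 and 1496 CPM in Scramble against 1457 and 1239.8 CPM in JAG2KO (0.00 ± 0.14, edgeR adjusted p = 0.997), with overlapping groups. None of 20 tested genes of apoptotic cell uptake passed with edgeR (median 0.06). Of these, 6 were higher and 2 lower at an unadjusted p under 0.05, and DESeq2 called 1 lower. Mertk overlapped between the groups, at 46.1, 67.1 and 55.9 CPM in Scramble against 55.9 and 60 CPM in JAG2KO (0.05 ± 0.17, edgeR adjusted p = 0.946). Ccl8 was at 905, 1643 and 1426 CPM in Scramble against 1558 and 2764 CPM in JAG2KO (0.73 ± 0.26, edgeR adjusted p = 0.172). Among 15 tested complement genes 4 rose (C3, C6, Cfb and Cd55) and 1 fell (Vsig4), while C4b was at 185, 182 and 181 CPM in Scramble against 168 and 139 CPM in JAG2KO (-0.21 ± 0.11, edgeR adjusted p = 0.413). The 4 calls rested on few libraries: none of them passed without Scramble 1 (adjusted p = 0.126, 0.145, 0.0862 and 0.0973) or JAG2KO 1 (0.460, 0.149, 0.409 and 0.171). Without Scramble 2, C3 (0.124), Cfb (0.0534) and Cd55 (0.0747) did not pass, and with DESeq2 C3 (0.131) and C6 (0.486) did not.

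JAG2 acts through Notch receptors, so the pathway was measured in the members. Notch2, a receptor of macrophages, was at 44.4, 41.3 and 32.2 CPM in Scramble against 56.5 and 69.2 CPM in JAG2KO (0.65 ± 0.16, edgeR adjusted p = 0.0441), without overlap. It was the only one of 29 tested pathway genes past the threshold (median 0.07), and did not pass when any of the 5 libraries was left out (adjusted p from 0.0559 to 0.121) or in 5 other settings (0.0519 to 0.0743). Doublet removal was among these settings. Notch1 was at 39.2, 52.3 and 50.8 CPM in Scramble against 55.7 and 55.7 CPM in JAG2KO (0.26 ± 0.16, edgeR adjusted p = 0.490). Rbpj, the DNA-binding partner of activated Notch, was at 458, 497 and 525 CPM in Scramble against 568 and 515 CPM in JAG2KO (0.16 ± 0.12, edgeR adjusted p = 0.611), and its target Hes1 at 95.5, 90.5 and 65 CPM in Scramble against 92.6 and 77.6 CPM in JAG2KO (0.07 ± 0.16, edgeR adjusted p = 0.914), both with overlap. Notch4 was at 1.26, 0.825 and 0.537 CPM in Scramble against 0 and 0.706 CPM in JAG2KO, too low to test.

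**Figure D4:**
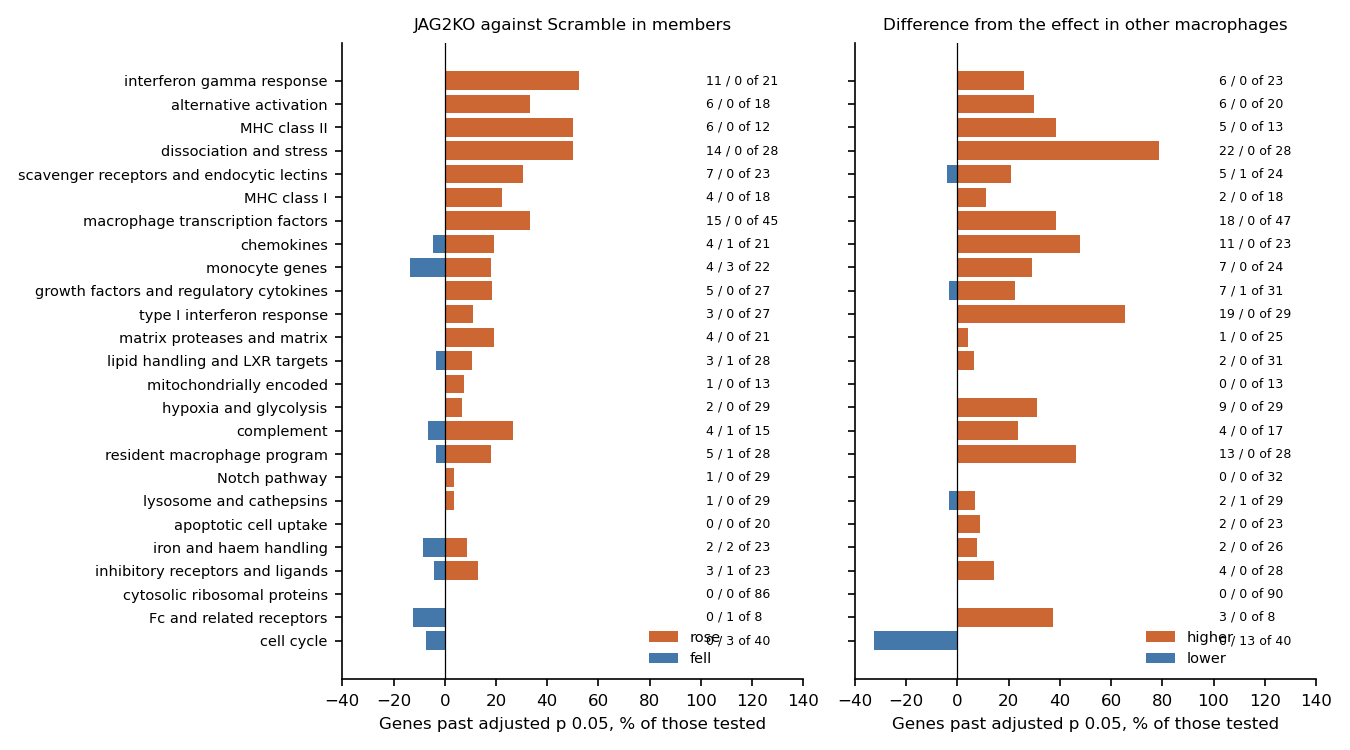
Share of tested genes past an adjusted p of 0.05 in 25 gene lists (y axis), higher to the right and lower to the left (x axis, %), with counts higher / lower of tested beside each bar. The left panel compares JAG2KO with Scramble in the Lyve1, Folr2 and Cd163 macrophages, where MHC class II (6 of 12), interferon gamma (11 of 21) and dissociation genes (14 of 28) have the longest bars. The right panel shows the difference of that effect from the effect in other macrophages, where dissociation (22 of 28) and type I interferon genes (19 of 29) do.

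Whether the members responded like other macrophages of the same tumours was tested as a difference of effects, with the library as a block. Of 13951 genes, 361 had a higher JAG2KO effect in members (2.59%) and 99 a lower one (0.71%), 3.30% in all. Without JAG2KO 1 the count was 146. A positive value means that members rose more, or fell less, than the other macrophages did. Since members had to carry 3 resident genes and to pass the Spp1 limit, which removed mostly Scramble cells, genes that go with those 4 are not free of the choice. JAG2KO 2 was also the shallowest library in both classes.

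For resident genes the effect of JAG2KO differed between the classes. Of 28 such genes 13 had a higher effect in members and none a lower one (with DESeq2, 9 and 0). At an unadjusted p under 0.05, 16 were higher and 3 lower. Gas6 was at 153, 146 and 153 CPM in Scramble against 119 and 80.5 CPM in JAG2KO in other macrophages, against level values in members, a difference of 0.66 ± 0.09, edgeR adjusted p = 3.96e-05. F13a1 was at 743, 698 and 732 CPM in Scramble against 619 and 227 CPM in JAG2KO in them (1.0 ± 0.12, edgeR adjusted p = 9.64e-06) and Pf4 at 1590.0, 1194 and 1135 CPM in Scramble against 1029 and 909 CPM in JAG2KO (0.58 ± 0.09, edgeR adjusted p = 0.000137). C4b was at 60.9, 74.8 and 66.3 CPM in Scramble against 35.4 and 23.3 CPM in JAG2KO (0.95 ± 0.10, edgeR adjusted p = 7.43e-07). All 4 differences were kept without any 1 library. Mrc1 was at 1095, 1021 and 1091 CPM in Scramble against 928 and 639 CPM in JAG2KO (0.35 ± 0.08, edgeR adjusted p = 0.00899) and did not pass without JAG2KO 2 (0.0838).

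**Figure D5:**
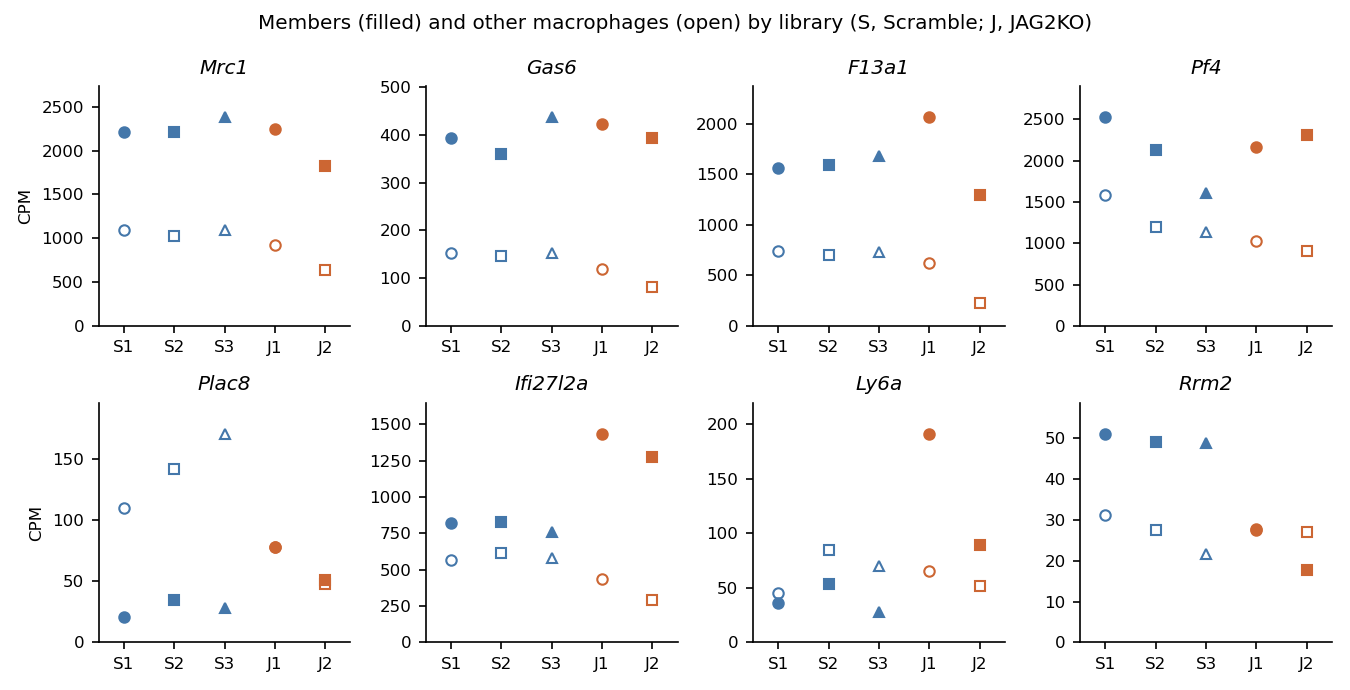
Level (y axis, CPM, linear from 0) of 8 genes in the Lyve1, Folr2 and Cd163 macrophages (filled) and in other macrophages (open) of each library (x axis; S1 to S3 Scramble, J1 and J2 JAG2KO). Open symbols of Gas6, F13a1, Pf4 and Ifi27l2a are lower in JAG2KO than in any Scramble library while filled ones are not, and filled symbols of Rrm2 fall while open ones stay level.

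Type I interferon genes separated the cell classes. Of 29 tested 19 had a higher effect in members and none a lower one (with DESeq2, 16 and 0), with a median difference of 0.94. The list summed to 1715, 1879 and 1817 CPM in Scramble against 2695 and 2214 CPM in JAG2KO in members, where JAG2KO was above, and to 1625, 1984 and 1891 CPM in Scramble against 1462 and 1082 CPM in JAG2KO in other macrophages, where it was below. Ifi27l2a, at 564, 616 and 579 CPM in Scramble against 435 and 289.7 CPM in JAG2KO in other macrophages, differed by 1.51 ± 0.09, edgeR adjusted p = 2.82e-11. Plac8, a cysteine-rich protein of monocytes, was at 21.1, 34.4 and 28.5 CPM in Scramble against 78 and 50.8 CPM in JAG2KO in members and at 110.0, 142 and 171 CPM in Scramble against 78.4 and 47.7 CPM in JAG2KO in others (2.40 ± 0.13, edgeR adjusted p = 2.9e-12). Ly6a was at 45.4, 85.1 and 70.2 CPM in Scramble against 65.9 and 51.7 CPM in JAG2KO in others (2.11 ± 0.17, edgeR adjusted p = 8.37e-09). Ifi27l2a and Plac8 were lower in other macrophages of both JAG2KO libraries than of any Scramble library, while for Ly6a the other macrophages overlapped. Members lay below the others for Plac8 in Scramble and near them in JAG2KO. All 3 differences were kept without any 1 library.

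For early-response genes and chemokines the JAG2KO effect was higher in members. Of 28 dissociation genes 22 had a higher effect, of 23 chemokines 11, and none a lower one (with DESeq2, 19 and 7, and none lower). In the members alone, however, 4 of 21 chemokines had passed as risen. Cxcl2 was at 1003, 908 and 793 CPM in Scramble against 835 and 576 CPM in JAG2KO in others (1.66 ± 0.12, edgeR adjusted p = 5.73e-10), Egr1 at 49.3, 68.3 and 72.6 CPM in Scramble against 155 and 93.7 CPM in JAG2KO (1.41 ± 0.12, edgeR adjusted p = 2.86e-08) and Kdm6b at 96.2, 113 and 163 CPM in Scramble against 212 and 188 CPM in JAG2KO (1.18 ± 0.10, edgeR adjusted p = 1.05e-08). In Scramble the members were below the others for Cxcl2 and Kdm6b, and in JAG2KO the gap was smaller or turned. Ccr2 was at 420.1, 495 and 559 CPM in Scramble against 502 and 675 CPM in JAG2KO in others (1.12 ± 0.11, edgeR adjusted p = 1.04e-07).

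For MHC class II, 5 of 13 genes had a higher effect in members (with DESeq2, 3). H2-Ab1 differed by 0.82 ± 0.11, edgeR adjusted p = 1.49e-05 and Cd74 by 0.81 ± 0.11, edgeR adjusted p = 4.86e-05. Cell cycle genes showed the opposite, with 13 of 40 lower and none higher (with DESeq2, 4 lower and 0 higher). Of the 40, 26 were lower and 2 higher at an unadjusted p under 0.05. Rrm2 was at 31.2, 27.6 and 21.7 CPM in Scramble against 27.8 and 27.1 CPM in JAG2KO in others (-0.98 ± 0.16, edgeR adjusted p = 0.000304), nearly level across the 5 libraries. Of 32 Notch pathway genes none differed at an adjusted p under 0.05 with edgeR or DESeq2, and 3 were higher and 3 lower at an unadjusted p under 0.05. Of 20 alternative activation genes 6 had a higher effect in members (with DESeq2, 3), but not every one that rose there. Retnla rose in all macrophages (3.50 (adjusted p = 0.0272)), and its difference was 0.66 (adjusted p = 0.533). Mgl2 likewise had 1.72 (adjusted p = 0.0397) in all macrophages and a difference of 0.00 (adjusted p = 1.0), Gbp2 a difference of 0.14 (adjusted p = 0.841), and Fcrls of 0.10 (adjusted p = 0.752). A p that misses the threshold does not show that the effects were equal.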

How the data were processed

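Raw UMI counts per gene and barcode for 5 libraries (3 Scramble, 2 JAG2KO, 32285 genes) were used as the authors deposited them, made per the file headers with cellranger 6.0.0. The labels name the single cell 3′ v2 kit, and the submitters' processing notes name Seurat and GRCm38 (mm10). Per the labels' design text, empty barcodes were removed before deposit. The members and gene lists were chosen with earlier results of these data known.

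UMIs were summed per library over members, other macrophages or all macrophages. JAG2KO and Scramble were compared with edgeR 4.0.16 (limma 3.58.1, R 4.3.3), quasi-likelihood test, TMM scaling, filterByExpr and Benjamini-Hochberg adjustment at 0.05 over all genes tested. Every adjusted p is edgeR's unless DESeq2 (1.42.0) is named. Differences of effect used 1 fit of both classes with the library as block. Shares were compared by an exact permutation test (Python 3.11.15, numpy 2.4.6, scipy 1.17.1). Thinning drew 2000 or 4000 UMIs per cell at random. Profile ratios used a pseudocount of 1 CPM. Named genes are the 12 largest called changes each way among genes averaging 10 CPM or more whose groups did not overlap, the leading members of each list (3 by adjusted p, 2 by level), the 20 highest and 10 lowest in the profile, 6 each way by difference of effect, and a set named in any case. Immunoglobulin, T cell receptor, haemoglobin, mitochondrial and ribosomal protein genes, gene models, Xist and Y genes were left out of the choices by largest change, profile and difference of effect. Not all named genes are given.

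On simulated counts for 10601 genes, the member test recovered 77% of 2-fold and 99% of 4-fold changes. The test of differences (13871 genes) recovered 42% and 98%. The simulation gave every gene the same spread between libraries. It placed changes only in genes above a minimum mean count, so these rates need not hold for the real data. Doublet scores came from a Scrublet-type method, and the top 8% per library were removed as an alternative. Alternatives were stricter cell filters, doublet removal, a stricter gate, no Spp1 limit, DESeq2, no filter on low counts, thinned sums, thinned cells, a replicate block, and each library left out. Whether samples with the same replicate number share a batch could not be told, and the main fits did not pair them. No column was left unmapped.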

Additional observations from a re-analysis of the deposited data

Results flagged for a closer look

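For 460 of 13951 genes the JAG2KO effect differed between the Lyve1, Folr2 and Cd163 macrophages and the other macrophages (edgeR, adjusted p under 0.05). The 6 with the smallest adjusted p in each direction are given as the log2 effect in members minus that in the others. Higher in members were Plac8 (2.40), Ifi27l2a (1.51), Cxcl2 (1.66), Ly6a (2.11), Kdm6b (1.18) and Egr1 (1.41). All 6 differences passed when any 1 library was left out.

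Lower in members were Rrm2 (-0.98), Hist1h1b (-0.90), Dut (-0.73), Hmga2 (-1.19), Pclaf (-0.59) and Kcnq1ot1 (-0.51). Rrm2, Dut and Pclaf serve DNA synthesis or repair and Hist1h1b is a linker histone made in S phase. Without JAG2KO 1, Hist1h1b (adjusted p = 0.0653) and Hmga2 (0.802) did not pass. Hmga2 did not with doublets removed (0.0608), and Dut (0.133) and Kcnq1ot1 (0.249) did not with 2 UMIs of each chosen gene required. With sums thinned to the smallest library Hmga2 (0.286), Dut (0.355) and Kcnq1ot1 (0.0726) did not, Hmga2 did not with DESeq2 (0.0659) and Pclaf did not without the Spp1 limit (0.102).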

How the results depend on the processing

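Against 423 genes called in members, 901 were called with no filter on low counts, 709 with the replicate block, 62 with cells thinned to 2000 UMIs (1638 genes tested) and 181 to 500 when 1 library was left out, the fewest without JAG2KO 1. In all macrophages 428 genes were called, with DESeq2 1224, with no filter 1119, with the replicate block 695 and 45 to 566 without 1 library. The difference of effects gave 460 genes, with DESeq2 239, with sums thinned to the smallest library 139 and 146 to 531 without 1 library. Of those 460, 78.5% were higher in members, of DESeq2's 91.6%, and with library totals in place of TMM, a scaling chosen after seeing the data, 67.4% of 436. The fold of the share was 0.353 to 1.5 without 1 library (1.0 without Scramble 1), 1.03 with at most 5% mitochondrial UMIs and 1.04 with 2 UMIs of each chosen gene, and the thinned fold 0.786 to 2.35 without 1 library. Replicate numbers 1 and 2 correlated at 0.12 and -0.049 across groups in members, and at 0.23 and -0.018 in all macrophages. These are correlations of deviations from the group mean, which mirror each other in the 2 JAG2KO libraries. They therefore cannot tell whether a number stands for a shared batch. The samples were not treated as pairs.

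Of 76 called genes followed in members 27 passed without any 1 library, and 21 in every setting, of 58 in the difference of effects 27 and 22. Not every setting in which a call was lost is named in the text. No called gene changed direction. Uncalled genes that turned in sign were Arg1 (-1.05 to 0.10 without 1 library), Gas6 (-0.17 with cells thinned), Fcna (-0.0306 to 0.15 without 1 library, -0.0142 with at most 5% mitochondrial UMIs, -0.0476 with sums thinned), Cbr2 (-0.71 to 0.20 without 1 library), F13a1 (-0.25 to 0.35 without 1 library), Pf4 (-0.0191 to 0.27 without 1 library, -0.0275 with the replicate block), Maf (-0.084 to 0.0846 without 1 library, -0.00246 with the stricter gate, -0.00438 with no filter on low counts, -0.0149 with sums thinned, -0.0196 with library totals), C4b (0.25 with cells thinned), Hes1 (-0.0739 to 0.16 without 1 library, -0.0931 without the Spp1 limit, -0.0445 with sums thinned, -0.0932 with the replicate block) and Mertk (-0.0968 to 0.20 without 1 library, -0.0843 with the stricter gate), with values in log2 units. The cause was not tested. With 136 members in JAG2KO 2, genes of a few UMIs could not be resolved there.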

Other observations

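Lysosome, glycolysis and ribosomal protein genes had few calls in the members. Of 29 tested lysosome genes 1 rose (Psap, prosaposin, at 1641, 1722 and 1686 CPM in Scramble against 2409.6 and 2684 CPM in JAG2KO, log2 fold change 0.62 ± 0.13, edgeR adjusted p = 0.0212), none fell, and the median was 0.06. The list summed to 27496, 26205 and 27629.5 CPM in Scramble against 27197 and 27153 CPM in JAG2KO. Of 29 hypoxia and glycolysis genes 2 rose, Pfkp at 56.5, 58.6 and 61.5 CPM in Scramble against 88.4 and 97.4 CPM in JAG2KO (0.67 ± 0.12, edgeR adjusted p = 0.0111) and Ndrg1 at 24.3, 32.2 and 18.3 CPM in Scramble against 47.3 and 35.3 CPM in JAG2KO (0.81 ± 0.20, edgeR adjusted p = 0.0466), and none fell, while 7 were higher and none lower at an unadjusted p under 0.05. In the difference of effects from other macrophages, 9 of the 29 were higher in members and none lower (with DESeq2, 5 and 0). The list summed to 6333, 6553 and 5897 CPM in Scramble against 6488 and 6462 CPM in JAG2KO in members and 7540.0, 7384 and 7369 CPM in Scramble against 6682 and 6764 CPM in JAG2KO in other macrophages. Psap did not pass without Scramble 1, 2 or 3 (adjusted p = 0.126, 0.104 and 0.0693), Pfkp without Scramble 2 (0.0517) and Ndrg1 without Scramble 1, Scramble 3 or JAG2KO 1 (0.158, 0.103 and 0.452). Psap also did not pass with the stricter gate or with cells thinned. Ndrg1 also did not pass with at most 5% mitochondrial UMIs, the stricter gate, DESeq2, thinned sums or library totals. None of 86 cytosolic ribosomal protein genes passed with edgeR or DESeq2, and 1 was higher at an unadjusted p under 0.05.

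B cell genes were higher in the members of both JAG2KO libraries, most in JAG2KO 2. The list of 7 summed to 7.75, 7.98 and 10.5 CPM in Scramble against 38.9 and 344 CPM in JAG2KO in members. Ighm rose, 1 of 2 tested, with a log2 fold change of 2.31 to 5.75 over the alternative settings. Pax5 was at 0 in every library. For the list, other macrophages had 10.6, 17.2 and 13.6 CPM in Scramble against 23.7 and 103 CPM in JAG2KO. The T cell list (10 genes) summed to 5.65, 6.88 and 6.72 CPM in Scramble against 9.77 and 12 CPM in JAG2KO in members, without overlap, and to 4.57, 6.53 and 4.89 CPM in Scramble against 12.5 and 22.4 CPM in JAG2KO in other macrophages, and its 1 tested gene did not pass. The endothelial list (9) summed to 15.3, 11.3 and 19.6 CPM in Scramble against 18.3 and 19.1 CPM in JAG2KO in members, with overlap. Their part in the results was not tested.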
